A study of Mus musculus with 12 samples.

Results

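The genes described here are the mouse transporters of the solute carrier families Slc2, Slc5, Slc16 and Slc27, chosen by symbol alone, without any measured value. The rule took every row of the count table whose symbol starts with Slc2a, Slc5a, Slc16a or Slc27a followed by a number. It found 45 genes of 20295 in the table, 12 in Slc2, 13 in Slc5, 14 in Slc16 and 6 in Slc27. A filter on low counts kept 32 of the 45 for testing, namely 10, 4, 12 and 6.

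Their RNA was measured by RNA-seq in mature white adipocytes that had been floated from the epididymal fat of lean male C57/BL6J mice and kept in a hydrogel for 2 days. The 12 libraries form 4 groups of 3. The group called DMSO had neither drug, ISO had 3 h of isoproterenol (a β-adrenergic agonist that raises cAMP and switches on triglyceride breakdown), Lip had lipase inhibitors alone, and Lip+ISO had the inhibitors followed by 3 h of isoproterenol. The study's methods name the inhibitors as Atglistatin, which blocks ATGL, and CAY10499, which they list as an inhibitor of HSL and MGL. The labels name no genetic change in any group, the age of the mice was not given in the sources used here, and the floated fraction was not sorted further. One legend of the study names another agonist of lipolysis, SR-3420, for the white adipocytes, whereas the sample titles and the study's text name ISO, and the titles are followed here.

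Slc2 genes encode the GLUT proteins, through which glucose and related sugars cross membranes down their gradient. GLUT1 is the carrier of many cells at rest, and GLUT4 is the one that insulin brings to the surface of fat and muscle cells. Slc16 genes encode the MCT proteins, of which MCT1 and MCT4 move lactate, pyruvate and ketone bodies together with a proton, and a fat cell that takes up much glucose releases part of it as lactate. Slc27 genes encode the FATP proteins, which couple fatty acid uptake to activation with coenzyme A. Slc5 genes encode sodium-coupled carriers. The name glucose, monocarboxylate and fatty acid transporters does not cover all 45: Slc5a3 carries myo-inositol, Slc5a7 choline, Slc5a6 water-soluble vitamins and Slc16a10 aromatic amino acids.

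The promoters of 7 members on which the results below turn are shown first, for reference. Slc2a1, Slc16a1, Slc16a3 and Slc16a10 were the members lower in Lip+ISO than in ISO, and Slc5a7, Slc5a3, Slc16a10 and Slc16a11 had the largest rise or fall in a comparison. Each window, from RefSeq on GRCm38.p6, runs 5′ to 3′ from 250 bases before to 50 bases after the annotated start. Capitals mark a match, on either strand, to TGACGTCA (the cAMP response element), its part TGACG (a short element that the full one contains), CACGTG (an E-box) or AGGTCA repeated after 1 free base (a PPAR element).
Slc2a1 (chr4:119108495-119108794, plus strand): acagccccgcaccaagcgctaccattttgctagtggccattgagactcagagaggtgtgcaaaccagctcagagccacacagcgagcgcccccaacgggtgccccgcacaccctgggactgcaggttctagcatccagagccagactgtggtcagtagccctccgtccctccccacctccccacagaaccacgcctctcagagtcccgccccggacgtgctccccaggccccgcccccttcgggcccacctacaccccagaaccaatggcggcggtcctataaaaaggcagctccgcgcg
Slc16a1 (chr3:104638414-104638713, plus strand): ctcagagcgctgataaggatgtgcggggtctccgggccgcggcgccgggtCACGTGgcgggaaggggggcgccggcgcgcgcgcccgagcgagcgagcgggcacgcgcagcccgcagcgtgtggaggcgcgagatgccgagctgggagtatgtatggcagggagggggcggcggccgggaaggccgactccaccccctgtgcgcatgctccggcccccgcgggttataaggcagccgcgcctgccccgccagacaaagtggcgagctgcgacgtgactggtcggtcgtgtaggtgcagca
Slc16a3 (chr11:120948817-120949116, plus strand): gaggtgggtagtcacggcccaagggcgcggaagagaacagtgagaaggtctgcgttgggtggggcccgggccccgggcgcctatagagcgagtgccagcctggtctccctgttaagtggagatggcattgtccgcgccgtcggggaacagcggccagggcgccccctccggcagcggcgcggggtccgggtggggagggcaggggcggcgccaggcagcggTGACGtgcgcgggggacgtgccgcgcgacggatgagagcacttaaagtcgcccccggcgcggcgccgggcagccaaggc
Slc16a10 (chr10:40142205-40142504, minus strand): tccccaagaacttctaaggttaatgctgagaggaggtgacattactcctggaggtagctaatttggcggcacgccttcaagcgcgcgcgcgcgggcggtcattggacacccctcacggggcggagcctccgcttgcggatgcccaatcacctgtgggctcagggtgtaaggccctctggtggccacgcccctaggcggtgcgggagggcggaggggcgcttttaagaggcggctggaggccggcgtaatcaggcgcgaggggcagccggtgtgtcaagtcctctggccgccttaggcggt
Slc16a11 (chr11:70213660-70213959, plus strand): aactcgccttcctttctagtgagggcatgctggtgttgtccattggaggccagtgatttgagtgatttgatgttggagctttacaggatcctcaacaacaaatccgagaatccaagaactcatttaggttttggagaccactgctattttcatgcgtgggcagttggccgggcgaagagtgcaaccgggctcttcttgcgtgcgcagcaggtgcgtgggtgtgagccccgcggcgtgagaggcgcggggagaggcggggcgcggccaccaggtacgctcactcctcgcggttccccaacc
Slc5a3 (chr16:92058072-92058371, plus strand): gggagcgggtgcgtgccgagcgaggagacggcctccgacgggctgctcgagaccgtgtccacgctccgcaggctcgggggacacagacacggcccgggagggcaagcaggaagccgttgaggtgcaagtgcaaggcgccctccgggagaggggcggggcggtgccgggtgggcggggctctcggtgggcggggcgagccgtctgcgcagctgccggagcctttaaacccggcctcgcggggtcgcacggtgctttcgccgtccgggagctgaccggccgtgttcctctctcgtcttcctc
Slc5a7 (chr17:54298985-54299284, minus strand): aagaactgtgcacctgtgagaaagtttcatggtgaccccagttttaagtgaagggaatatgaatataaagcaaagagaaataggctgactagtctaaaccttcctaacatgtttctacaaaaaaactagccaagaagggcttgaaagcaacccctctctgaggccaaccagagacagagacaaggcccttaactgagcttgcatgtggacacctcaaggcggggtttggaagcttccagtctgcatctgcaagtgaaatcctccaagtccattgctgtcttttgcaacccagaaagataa

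Of these windows, Slc16a1 held an E-box from 200 to 195 bases before the start and Slc16a3 a short element from 29 to 25 bases before it. Slc2a1, Slc16a10, Slc16a11, Slc5a3 and Slc5a7 held none of the 4 motifs. RefSeq promoters were found for 23 of the 32 tested members, in 26 windows, and for 8 of the 10 members called in any comparison. Among the 26 windows 3 held an E-box (11.5%) and 3 a short element (11.5%), against 7.15% and 20.8% of all 32851 promoter windows. The full cAMP response element was in 0 of the 26 and in 1.79% of all windows, and the PPAR element in 0 of the 26 and in 0.0396% of all. A match is a description of the letters and no evidence of binding.

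Library totals ran from 22632220 to 43707557 counts. The members together held 0.138% to 0.154% of them in Lip+ISO and 0.166% to 0.181% in the other groups. Genes with at least 1 count numbered 15141 to 15297 in DMSO, 15501 to 15774 in ISO, 15634 to 16244 in Lip and 16356 to 17079 in Lip+ISO. Levels below are CPM, counts scaled to the library total with TMM factors, and a total of 3 counts corresponds to 0.0678 to 0.132 CPM, depending on the library. Over the 500 most variable genes, Lip replicate 3 lay apart on the third component (7.39% of the variance), at 23.1 against -9.62 to 6.36 for the other 11 libraries, and the 2 member calls that end without it are named where they are given. Differences are log2 fold changes from a negative binomial fit of all 12 libraries, given with their standard error (SE), and a gene is called higher or lower where the Benjamini-Hochberg adjusted p over all 13543 tested genes was at or under 0.05. The labels do not say which libraries came from separate animals or cultures, so these p-values measure the spread between the libraries; the study describes independent experiments.

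In the DMSO libraries the most abundant member was Slc27a1, which encodes FATP1, the fatty acid transport protein of adipocytes. Set against the length counted, which is needed to compare genes, Slc27a1 had a level of 171.5 ± 31.0 CPM per kb (mean ± SD, n = 3). Slc2a1, encoding GLUT1, followed at 59.5 ± 8.18 CPM per kb and Slc5a3 at 44.2 ± 3.51 CPM per kb. The lowest Slc2a1 library (51.1 CPM per kb) lay above the highest for Slc5a3 (47.6 CPM per kb). Slc27a4 (35.3 ± 2.34 CPM per kb) and Slc16a1 (32.5 ± 1.53 CPM per kb) came next and overlapped each other, as did Slc16a10 (18.8 ± 2.59 CPM per kb) and Slc2a8 (17.1 ± 2.19 CPM per kb). Slc2a4, encoding GLUT4, was at rank 11 with 6.76 ± 0.847 CPM per kb, below Slc16a12 and Slc5a6.

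**Figure D1:**
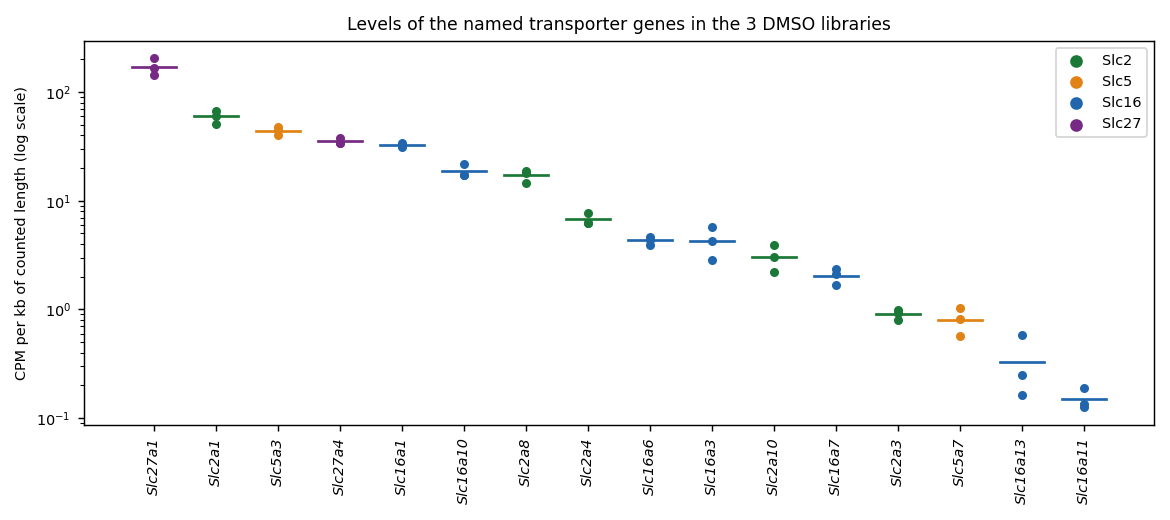
Level of the 16 named members in the 3 DMSO libraries, in CPM per kb of counted length on a log axis, coloured by family, with points for libraries and a bar for the mean. Slc27a1 stands above all other members at 171.5 CPM per kb, and the named Slc2 genes run from 59.5 (Slc2a1) down to 0.907 CPM per kb (Slc2a3).

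The levels per kb were also added over the members of each family, and no test was run on these sums. The Slc2 sum was 90.4 ± 7.93 CPM per kb in DMSO, 149.3 ± 12.8 in ISO, 93.4 ± 1.08 in Lip and 86.9 ± 7.70 in Lip+ISO. Slc2a1 made up 65.7% of that sum in DMSO, 81.6% in ISO, 67.2% in Lip and 69.8% in Lip+ISO. The Slc16 sum was 84.2 ± 2.90 CPM per kb in DMSO, 122.0 ± 4.50 in ISO, 80.6 ± 0.638 in Lip and 89.5 ± 4.54 in Lip+ISO. Slc16a1 held 38.6% of it in DMSO, 53.2% in ISO, 36.7% in Lip and 56.1% in Lip+ISO. The Slc5 sum was lower in both groups with isoproterenol, at 38.4 ± 3.56 (ISO) and 39.0 ± 2.93 CPM per kb (Lip+ISO) against 55.1 ± 4.21 (DMSO) and 55.9 ± 4.56 CPM per kb (Lip), without overlap between libraries with and without it. For Slc27 the 4 sums lay between 179.2 and 208.1 CPM per kb with SDs of 27.4 to 38.5, so these groups overlapped.

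The first comparison asks how 3 h of ISO changed the transporters without lipase inhibitors. Genes for GLUT1, MCT1 and MCT4 rose together, whereas the GLUT4 gene and the abundant FATP genes were not called. In all, 6 of the 32 tested members were higher in ISO than in DMSO (18.75%), against 12.3% of all tested genes, and 1 was lower, against 13.9%. The higher ones were Slc2a1, Slc16a1, Slc16a3, Slc16a11, Slc16a13 and Slc5a7, and the lower one was Slc5a3. The median log2 fold change was 0.057 over the members and 0.002 over all tested genes.

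Slc2a1 (NM_011400, mm9 chr4:118781350-118809934, plus strand) measured 131.3, 154.5 and 173.3 CPM in the DMSO libraries 1 to 3 and 269.8, 327.5 and 345.0 CPM in the ISO libraries. Every ISO library was above every DMSO library, and the fitted change was 2.05-fold (log2 fold change 1.04, SE 0.13, adjusted p = 1.0e-04). Slc16a1, encoding MCT1 (NM_009196, mm9 chr3:104442587-104462385, plus strand), measured 141.3, 138.8 and 151.6 CPM in DMSO and 288.2, 275.9 and 299.0 CPM in ISO. It rose 2.00-fold (log2 fold change 1.00, SE 0.08, adjusted p = 2.2e-06), again without overlap between the groups. Slc16a3, encoding MCT4, the lactate exporter of glycolytic cells (NM_030696, mm9 chr11:120809798-120820314, plus strand), was lower in level, with 10.6, 14.2 and 7.13 CPM in DMSO and 21.1, 34.3 and 29.2 CPM in ISO. Its groups did not overlap either, and it rose 2.65-fold (log2 fold change 1.41, SE 0.27, adjusted p = 0.0021). With all libraries of replicate number 3 left out, the Slc16a3 adjusted p was 0.056.

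Slc5a7, encoding the choline transporter of nerve terminals (NM_022025, mm9 chr17:54412915-54438359, minus strand), had the largest rise. It went from 5.31, 4.20 and 2.94 CPM in DMSO to 24.6, 20.2 and 18.3 CPM in ISO, 5.05-fold (log2 fold change 2.34, SE 0.33, adjusted p = 2.6e-04). Slc5a3, encoding the sodium-coupled myo-inositol carrier SMIT1 (NM_017391, mm9 chr16:92058567-92087718, plus strand), was the one member that fell. Its libraries read 477.1, 437.1 and 512.7 CPM in DMSO and 281.2, 255.4 and 310.1 CPM in ISO, so that DMSO was 1.69-fold higher (log2 fold change -0.75, SE 0.11, adjusted p = 2.6e-04). Slc5a3 overlaps Mrps6 on the same strand over 29138 bp, and reads in shared parts cannot be assigned to either with certainty. Mrps6 itself was not called in this comparison (log2 fold change -0.06, adjusted p = 0.635).

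Slc16a11 and Slc16a13, which encode MCT11 and MCT13, lie next to each other on chromosome 11, on opposite strands, 377 bp apart. Both were scarce. Slc16a11 (NM_153081, mm9 chr11:70027412-70029916, plus strand) had 6 to 62 counts per library over all 12, at 0.221, 0.336 and 0.235 CPM in DMSO and 0.440, 0.837 and 2.68 CPM in ISO (log2 fold change 2.30, SE 0.60, adjusted p = 0.013). Slc16a13 (NM_172371, mm9 chr11:70030294-70034496, minus strand) had 13 to 97 counts, at 0.411, 1.47 and 0.627 CPM in DMSO and 2.03, 1.95 and 4.20 CPM in ISO (log2 fold change 1.71, SE 0.52, adjusted p = 0.029). ISO replicate 3 was the highest library for both. Without it the log2 fold changes were 1.31 (adjusted p = 0.063) for Slc16a11 and 1.26 (adjusted p = 0.13) for Slc16a13. Both calls were also lost without DMSO replicate 1 (adjusted p = 0.057 and 0.11) or DMSO replicate 3 (adjusted p = 0.054 and 0.11).

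**Figure D2:**
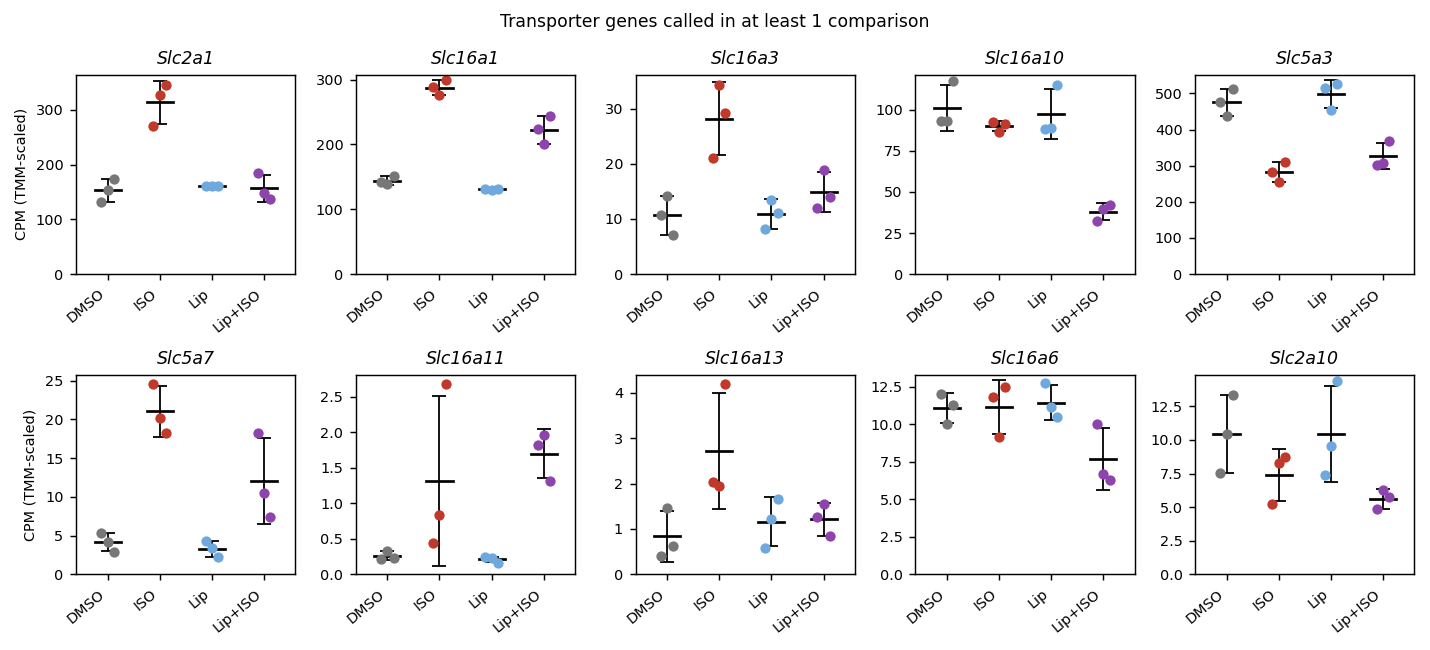
Level in CPM (TMM-scaled) of the 10 members called in at least 1 comparison, with 1 point per library, a bar for the group mean and whiskers of 1 SD (n = 3), on axes that start at 0. Slc2a1 is high in ISO alone, Slc16a10 is low in Lip+ISO alone, and Slc5a3 is low and Slc5a7 high in both groups with isoproterenol.

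The carriers best known from fat cells behaved differently from Slc2a1. Slc2a4, encoding GLUT4 (NM_009204, mm9 chr11:69755788-69761692, minus strand), had 21.8, 17.8 and 17.6 CPM in DMSO and 22.9, 18.2 and 15.0 CPM in ISO. These groups overlapped (log2 fold change -0.03, 95% interval -0.44 to 0.37, adjusted p = 0.867). Slc27a1 (NM_011977, mm9 chr8:74092826-74110607, plus strand) read 571.5, 399.3 and 467.3 CPM in DMSO and 525.9, 346.6 and 339.2 CPM in ISO (log2 fold change -0.25, 95% interval -0.68 to 0.19, adjusted p = 0.384). Slc27a4, encoding FATP4 (NM_011989, mm9 chr2:29658200-29673042, plus strand), read 137.3, 134.7 and 152.1 CPM in DMSO and 137.3, 127.4 and 130.3 CPM in ISO (log2 fold change -0.10, adjusted p = 0.554).

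Slc2a3, Slc2a8 and Slc16a7 are carriers known from nerve and other cells as well. Slc2a3, encoding GLUT3, the neuronal glucose carrier, had 3.95, 3.65 and 3.17 CPM in DMSO and 4.14, 5.29 and 4.45 CPM in ISO, without overlap but not called (log2 fold change 0.37, adjusted p = 0.203). Slc2a8, encoding the intracellular GLUT8, had 39.4, 30.6 and 37.1 CPM in DMSO and 33.7, 28.2 and 26.0 CPM in ISO (log2 fold change -0.29, adjusted p = 0.101). Slc16a7, encoding MCT2, had 5.12, 4.07 and 5.68 CPM in DMSO and 5.15, 4.55 and 3.42 CPM in ISO (log2 fold change -0.18, adjusted p = 0.577). The groups overlapped for Slc2a8 and Slc16a7, and Slc2a8 was called lower without DMSO replicate 2 (log2 fold change -0.40, adjusted p = 0.038) or ISO replicate 1 (-0.40, adjusted p = 0.037).

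The Lip against DMSO comparison asks what the inhibitors did without a stimulus. No member was called with edgeR or with DESeq2: 0 of 32 were higher, against 0.00738% of all tested genes, and 0 were lower, against 0.0443%. At an unadjusted p under 0.05 there were also 0 members in either direction, against 582 of all 13543 tested genes. Slc2a1 had 161.8, 160.8 and 161.7 CPM in Lip, within the span of the DMSO libraries (log2 fold change 0.08, 95% interval -0.20 to 0.36). Slc16a1 had 130.8, 130.4 and 131.5 CPM in Lip, each below the lowest DMSO library (log2 fold change -0.14, 95% interval -0.31 to 0.03, adjusted p = 1). The other Lip values of the called genes are given below with Lip+ISO.

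The comparison of Lip+ISO with ISO asks which levels under isoproterenol were changed by the lipase inhibitors. Slc2a1 overlapped the unstimulated groups again, Slc16a1 stood between them and ISO, and Slc16a10 was below every other group. In this comparison 4 of 32 members were lower (12.5%), against 4.59% of all tested genes, and 0 were higher, against 4.36%. At an unadjusted p under 0.05, 9 members were lower and 0 higher, while 3230 of all 13543 tested genes passed in either direction. DESeq2 also called 4 members lower and 0 higher. The median log2 fold change was -0.388 over the members and -0.009 over all tested genes. This comparison shares the ISO libraries with the first one, so the values are given side by side.

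In Lip+ISO, Slc2a1 measured 185.2, 147.7 and 137.0 CPM, each below the lowest ISO library of 269.8 CPM. The ISO level was 2.01-fold that of Lip+ISO (log2 fold change -1.004, SE 0.13, adjusted p = 4.3e-04). Slc16a1 measured 223.6, 200.3 and 243.5 CPM in Lip+ISO, below all ISO libraries and above all DMSO and Lip libraries (log2 fold change against ISO -0.37, SE 0.08, adjusted p = 0.011). That call was lost without the libraries of replicate number 1 (adjusted p = 0.077) or 2 (adjusted p = 0.16). Slc16a3 measured 11.9, 18.8 and 13.9 CPM in Lip+ISO and 8.11, 13.5 and 11.02 CPM in Lip. Its Lip+ISO libraries were below all ISO libraries but overlapped Lip (log2 fold change against ISO -0.92, SE 0.26, adjusted p = 0.048). The Slc16a3 call was a near one: leaving out 1 of 6 single libraries ended it, with an adjusted p of 0.066 (DMSO replicate 1), 0.19 (ISO replicate 2), 0.12 (ISO replicate 3), 0.058 (Lip replicate 3), 0.13 (Lip+ISO replicate 1) or 0.15 (Lip+ISO replicate 3). The call was also lost without the libraries of replicate number 1, 2 or 3, with the highest adjusted p, 0.26, for number 3.

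Slc16a10, encoding the aromatic amino acid carrier TAT1 (NM_001114332, mm9 chr10:39753341-39862060, minus strand), behaved in another way. It had 93.3, 92.9 and 117.2 CPM in DMSO, 92.7, 86.8 and 91.3 CPM in ISO and 88.4, 88.9 and 115.2 CPM in Lip. In Lip+ISO it had 32.5, 39.4 and 42.3 CPM, less than the lowest library of any other group. Against ISO the log2 fold change was -1.24 (SE 0.13, adjusted p = 8.5e-05), a level 2.37-fold higher in ISO. Neither drug alone gave a call for it: the log2 fold change was -0.16 in ISO against DMSO (95% interval -0.44 to 0.11) and -0.05 in Lip against DMSO (95% interval -0.33 to 0.23).

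Slc5a7 measured 18.3, 10.5 and 7.47 CPM in Lip+ISO, none above the lowest ISO library (log2 fold change against ISO -0.80, adjusted p = 0.137). Its highest library there was Lip+ISO replicate 1, and without it Slc5a7 was called lower (log2 fold change -1.22, adjusted p = 0.021), as it was without replicate number 1 in every group (-1.09, adjusted p = 0.045). Slc5a3 measured 302.9, 307.8 and 368.9 CPM in Lip+ISO (log2 fold change 0.21, adjusted p = 0.251), overlapping ISO. Slc16a11 had 1.82, 1.96 and 1.31 CPM in Lip+ISO, within the span of ISO, and Slc16a13 had 1.25, 1.56 and 0.834 CPM there, below each ISO library (log2 fold change -1.15, adjusted p = 0.19). Slc2a4 was at 11.6, 14.9 and 17.1 CPM in Lip+ISO (log2 fold change -0.36, 95% interval -0.77 to 0.05, adjusted p = 0.278). Slc2a3 had 3.07, 3.34 and 2.98 CPM in Lip+ISO, below every ISO library but not called (log2 fold change -0.57, adjusted p = 0.114). Slc2a8 had 29.4, 33.2 and 33.7 CPM, Slc16a7 had 5.70, 4.41 and 4.41 CPM, Slc27a1 had 398.9, 337.5 and 495.7 CPM and Slc27a4 had 126.2, 144.7 and 185.2 CPM in Lip+ISO, with adjusted p from 0.319 to 0.96 against ISO.

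The comparison of Lip+ISO with Lip gives the response to isoproterenol in the presence of the lipase inhibitors, and its libraries are not shared with ISO against DMSO. Slc16a1, Slc5a7 and Slc16a11 rose in this setting too, Slc2a1 had a log2 fold change near 0, and Slc16a3 had a positive one that was not called. Higher were 3 of 32 members, against 11.5% of all tested genes, and lower were 4, against 15.8%. The medians were -0.05 over the members and -0.004 over all tested genes. Slc16a1 was 1.70-fold higher (log2 fold change 0.77, SE 0.08, adjusted p = 1.2e-05). Slc5a7, at 4.29, 3.38 and 2.24 CPM in Lip, was 3.67-fold higher in Lip+ISO (log2 fold change 1.88, SE 0.33, adjusted p = 9.0e-04). Slc16a11, at 0.241, 0.225 and 0.166 CPM in Lip, was higher in each Lip+ISO library (log2 fold change 3.00, SE 0.60, adjusted p = 0.0023). By contrast, Slc2a1 had a log2 fold change of -0.04 (95% interval -0.32 to 0.24, adjusted p = 0.851), Slc16a3 of 0.45 (95% interval -0.13 to 1.03, adjusted p = 0.251) and Slc16a13, at 0.584, 1.22 and 1.66 CPM in Lip, of 0.06 (adjusted p = 0.947).

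The 4 lower members in Lip+ISO against Lip were Slc16a10, Slc5a3, Slc2a10 and Slc16a6. Slc16a10 was 2.56-fold higher in Lip (log2 fold change -1.36, SE 0.13, adjusted p = 7.1e-06). Slc5a3, at 516.0, 453.1 and 526.1 CPM in Lip, was 1.53-fold higher there (log2 fold change -0.61, SE 0.11, adjusted p = 8.1e-04), while Mrps6 had a log2 fold change of -0.10 (adjusted p = 0.488). Slc2a10, encoding GLUT10 (NM_130451, mm9 chr2:165329397-165345417, plus strand), had 7.42, 9.53 and 14.4 CPM in Lip against 4.85, 6.26 and 5.72 CPM with both drugs (log2 fold change -0.90, SE 0.28, adjusted p = 0.03). In DMSO it had 7.52, 10.4 and 13.3 CPM and in ISO 5.20, 8.30 and 8.74 CPM, so that DMSO and ISO overlapped. Slc16a6, encoding MCT7 (NM_001029842, mm9 chr11:109312170-109334910, minus strand), had 12.7, 11.1 and 10.5 CPM in Lip and 10.0, 6.67 and 6.28 CPM with both drugs (log2 fold change -0.58, SE 0.19, adjusted p = 0.036), against 12, 10.0 and 11.3 CPM in DMSO and 11.8, 9.14 and 12.5 CPM in ISO.

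Single libraries decided the last 2 of these calls. For Slc2a10 the adjusted p was 0.15 without Lip replicate 3 (log2 fold change -0.59), 0.090 without Lip+ISO replicate 1 and 0.067 without Lip+ISO replicate 3. For Slc16a6 it was 0.14 without Lip replicate 1, 0.067 without Lip replicate 2, and 0.13 without Lip+ISO replicate 2 or replicate 3. Against ISO, where Slc16a6 was not called (log2 fold change -0.54, adjusted p = 0.101), leaving out Lip+ISO replicate 1 gave a call (-0.78, adjusted p = 0.014). Slc16a6 also overlaps Arsg, on the opposite strand, over 223 bp, and whether the counting used strand is not given in the sources used here.

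**Figure D3:**
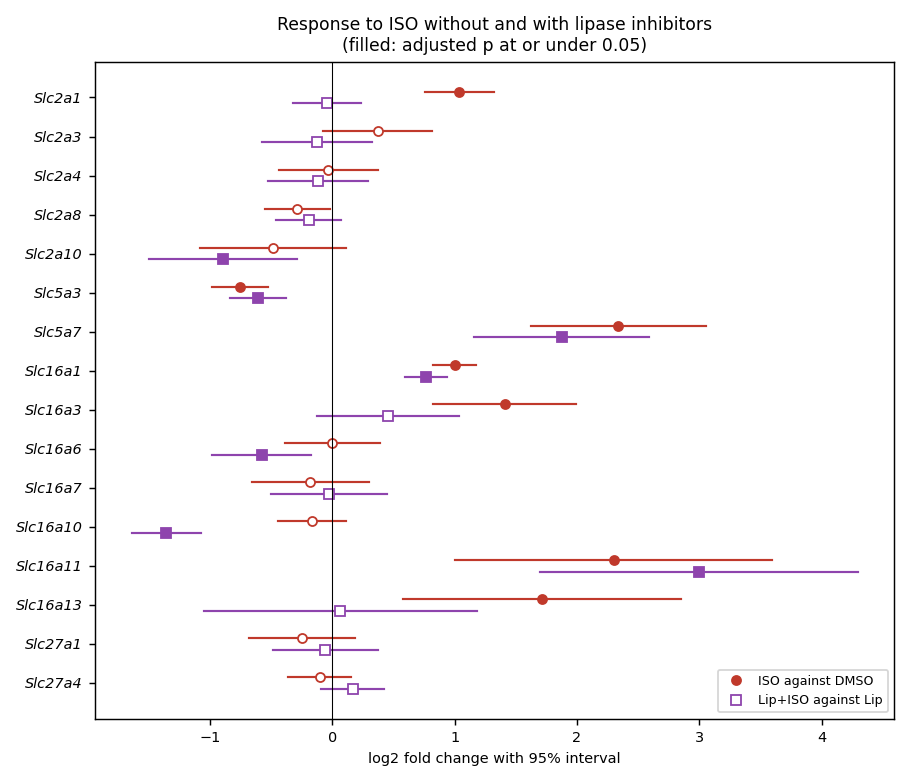
Log2 fold change with its 95% interval for the 16 named members, in ISO against DMSO (circles) and Lip+ISO against Lip (squares), filled where the adjusted p was at or under 0.05. Slc2a1 is at 1.04 without and -0.04 with the inhibitors, Slc16a10 at -0.16 and -1.36, and Slc16a1 at 1.00 and 0.77.

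The difference between the 2 responses was tested directly as the interaction, the log2 response to isoproterenol with the inhibitors minus that without them. It was lower for 2 of 32 members, against 0.724% of all tested genes, and higher for 0, against 0.901%, and DESeq2 gave the same counts. For Slc2a1 it was -1.08 (SE 0.18, 95% interval -1.48 to -0.68, adjusted p = 0.011), and for Slc16a10 it was -1.19 (SE 0.18, 95% interval -1.59 to -0.80, adjusted p = 0.0055). Neither call was lost when any single library was left out. Leaving out all 4 libraries of a replicate number ended the Slc2a1 call for number 2 (adjusted p = 0.277) and number 3 (adjusted p = 0.132), and the Slc16a10 call for number 1 (adjusted p = 0.066) and number 2 (adjusted p = 0.133), with values between -1.25 and -1.02.

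For Slc16a1 and Slc16a3 the interaction did not pass the threshold in the main fit, which has no term for the replicate number. With that number as a block, Slc16a3 was called (-0.95, adjusted p = 0.032), though no label says that it marks a shared preparation. In the main fit the interaction was -0.23 for Slc16a1 (95% interval -0.48 to 0.01, adjusted p = 0.385) and -0.95 for Slc16a3 (95% interval -1.77 to -0.14, adjusted p = 0.279). The values were 0.14 for Slc5a3 (95% interval -0.18 to 0.47), -0.46 for Slc5a7 (-1.45 to 0.53) and -0.09 for Slc2a4 (-0.66 to 0.49). At an unadjusted p under 0.05, 6 members were lower and 0 higher, while 1868 of all 13543 tested genes passed in either direction.

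**Figure D4:**
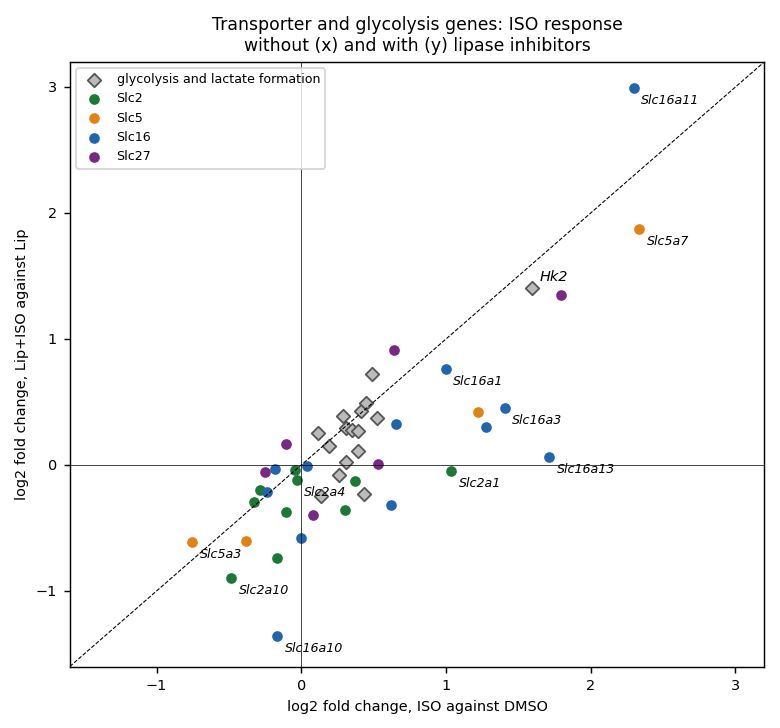
Log2 fold change of ISO against DMSO (x) and of Lip+ISO against Lip (y) for the 32 tested members, coloured by family, and for the 16 tested glycolysis genes (grey diamonds), with a dashed line of equal response. Slc2a1 lies far below the line at 1.04 and -0.04, Slc16a10 at -0.16 and -1.36, while the glycolysis gene Hk2 lies near it at 1.59 and 1.41.

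The following tested members were not called in any comparison either. In Slc2 these were Slc2a2 (GLUT2), Slc2a6, Slc2a9 (a urate carrier), Slc2a12 and Slc2a13 (a proton-coupled myo-inositol carrier), with group means between 0.361 and 9.71 CPM. In Slc5 they were Slc5a5 (the iodide carrier of the thyroid) at 0.318 to 0.725 CPM and Slc5a6 at 18.4 to 31.9 CPM. In Slc16 they were Slc16a12 at 38.9 to 46.3 CPM, Slc16a9 at 4.49 to 6.98 CPM, and Slc16a4 and Slc16a5, both under 1 CPM in every group mean. In Slc27, besides Slc27a1 and Slc27a4, they were Slc27a2, Slc27a3, Slc27a5 and Slc27a6, with group means between 0.0822 and 2.47 CPM. Thus 0 of 6 FATP genes were called in any of the 5 comparisons, by edgeR or DESeq2. At an unadjusted p under 0.05 only Slc27a5 passed, with log2 fold changes of 1.79 in ISO against DMSO (adjusted p = 0.061) and 1.35 in Lip+ISO against Lip (adjusted p = 0.102), at group means of 0.0822 to 0.431 CPM.

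The 13 members left out by the filter had at most 13 counts in any library. They were Slc2a5 and Slc2a7 in Slc2, Slc16a8 and Slc16a14 in Slc16, and Slc5a1, Slc5a2, Slc5a4a, Slc5a4b, Slc5a8, Slc5a9, Slc5a10, Slc5a11 and Slc5a12 in Slc5. They include the sodium-coupled glucose carriers of gut and kidney, Slc5a1 and Slc5a2, with 9 and 11 counts in all 12 libraries together. Slc5a4a and Slc5a4b are close copies, so that reads of one may have been given to the other.

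Genes of the same routes were described from lists, to place the transporters. These lists were chosen with earlier results of these data known. Their counts stand beside these shares over all tested genes. In ISO against DMSO 12.3% were higher and 13.9% lower, and in Lip+ISO against Lip 11.5% and 15.8%. In Lip+ISO against ISO the shares were 4.36% and 4.59%, and in the interaction 0.901% and 0.724%. Of 16 tested genes of glycolysis and lactate formation, 9 were higher in ISO than in DMSO and 0 lower (median log2 fold change 0.37), and 8 were higher and 0 lower in Lip+ISO than in Lip (median 0.27). Gapdh, Pgk1 and Pgam1, among the 9, had only 62.3, 20.5 and 19.3 CPM in DMSO, beside 2297 CPM for Aldoa. Eno1, not called, had 2.97 CPM over a counted length of 127 bp. The cause of these low levels was not tested. In Lip+ISO against ISO 0 of 16 were called by edgeR, 1 higher and 1 lower by DESeq2, and 1 higher and 3 lower at an unadjusted p under 0.05. In the interaction 0 of 16 were called by either tool, and 1 was lower at an unadjusted p under 0.05. Hk2, which encodes hexokinase 2, the enzyme that traps glucose as its phosphate, had the largest rise, from 250.2 ± 25.7 CPM in DMSO to 755.1 ± 89.2 CPM in ISO (log2 fold change 1.59, adjusted p = 1.2e-05). It also rose from 246.0 ± 42.6 CPM in Lip to 651.5 ± 123.6 CPM with both drugs (log2 fold change 1.41, adjusted p = 2.0e-05), with an interaction of -0.19 (adjusted p = 0.761). Ldha, encoding the lactate dehydrogenase subunit that forms lactate, rose by 0.41 and 0.43 on the log2 scale in these comparisons (adjusted p = 0.0021 and 0.0012). Hk2 and Ldha thus had calls in both settings, in which Slc2a1 had a call in one.

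Among 5 partners of monocarboxylate transport, Emb and Mpc2 were higher and Hcar1 lower in ISO than in DMSO. Emb, encoding embigin, a chaperone of MCT proteins, rose by 0.72 on the log2 scale (adjusted p = 0.0033) and Mpc2, a subunit of the mitochondrial pyruvate carrier, by 0.24 (adjusted p = 0.024). Hcar1, encoding the lactate receptor of adipocytes, changed by -0.96 (adjusted p = 9.8e-04). Bsg, encoding basigin, which brings MCT1 and MCT4 to the membrane, was at 717.3 ± 36.3 CPM in DMSO and 749.4 ± 43.0 CPM in ISO (log2 fold change 0.06, adjusted p = 0.573), and Mpc1 had a log2 fold change of 0.02 (adjusted p = 0.909). In Lip+ISO against Lip, Emb (1.04) and Mpc1 (0.34) were higher and Hcar1 (-0.54) lower. In Lip+ISO against ISO 0 of 5 were called by edgeR, 1 higher by DESeq2 and 2 higher at an unadjusted p under 0.05.

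Of 5 genes of glucose sensing, 1 was higher and 3 were lower in ISO than in DMSO. Txnip, encoding a protein that binds GLUT1 and takes it from the surface, had a log2 fold change of -1.003 (adjusted p = 1.9e-04), with 460.4 ± 28.9 CPM in DMSO and 229.8 ± 18.7 CPM in ISO. Mlxipl, encoding the glucose-responsive factor ChREBP, changed by -0.94 and Mlxip, encoding MondoA, by -0.33. Arrdc4, a relative of Txnip, rose by 0.61 on the log2 scale (adjusted p = 0.01) and was the one gene of the list higher in Lip+ISO than in ISO (log2 fold change 1.11, adjusted p = 4.9e-04). Without isoproterenol Arrdc4 had 11.15 ± 0.14 CPM in DMSO and 17.88 ± 2.13 CPM in Lip. In Lip against DMSO 0 of the 5 genes were called by edgeR, 1 higher by DESeq2 and 1 higher at an unadjusted p under 0.05. For Txnip, Lip+ISO against ISO gave 0.47 (adjusted p = 0.05002) and Lip+ISO against Lip gave -0.46 (adjusted p = 0.021). In Lip+ISO against Lip, Arrdc4 (1.04) was higher and Mlxipl (-1.07), Mlxip (-0.32) and Txnip lower. The interaction was called for 0 of 5 by either tool, with 1 higher at an unadjusted p under 0.05.

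Of 12 genes of GLUT4 vesicle traffic, 1 was higher and 1 lower in ISO than in DMSO, against 12.3% and 13.9% of all tested genes. Tbc1d1 was the higher one (log2 fold change 0.76, adjusted p = 3.9e-05). Lnpep, a resident of GLUT4 vesicles, was the lower one (-0.57, adjusted p = 0.0077). Tbc1d4, encoding the insulin-regulated Rab GTPase-activating protein AS160, had -0.22 there (adjusted p = 0.186). In Lip+ISO against Lip 3 were higher (Tbc1d1, Stxbp3a and Rhoq) and 3 lower (Tbc1d4 at -0.58, Lnpep and Trip10), and in Lip+ISO against ISO Rhoq was higher (0.52). Of 11 tested genes of fatty acid uptake and activation outside Slc27, Acsl3 (1.51), Acsl4 (1.36) and Got2 (0.26) were higher in ISO than in DMSO and 0 lower. Acsl3 (1.67) and Acsl4 (1.88) were also higher in Lip+ISO than in Lip, and Acsl4 (0.44) in Lip+ISO than in ISO. Cd36, encoding the main fatty acid receptor of adipocytes, was at 5216 ± 326.6 CPM in DMSO and 4981 ± 482.2 CPM in ISO (log2 fold change -0.07, adjusted p = 0.665), and Acsl1, encoding the main long-chain acyl-CoA synthetase of adipocytes, had a log2 fold change of 0.28 (adjusted p = 0.156).

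The floated cells carried adipocyte markers at high levels, and RNA of other cell types moved with the groups. Over all tested genes, 12.3% were higher and 13.9% lower in ISO against DMSO. In Lip+ISO against ISO these shares were 4.36% and 4.59%. The summed level of 10 adipocyte markers was 35280 to 51060 CPM over the 12 libraries; of them Lep and Adrb3 were lower in ISO than in DMSO and 0 higher. Macrophage markers summed to 57.8 to 71.7 CPM in DMSO, 117.9 to 177.1 in ISO, 62.4 to 67.4 in Lip and 78.0 to 131.8 in Lip+ISO, and 7 of 11 were higher in ISO than in DMSO. In Lip+ISO against Lip 3 of the 11 were higher and 0 lower, against 11.5% and 15.8% of all tested genes. Fibroblast markers summed to 446.8 to 784.4 CPM in DMSO, 891.1 to 1179 in ISO, 597.7 to 634.8 in Lip and 549.3 to 743.9 in Lip+ISO. Of the 8, Pdgfra, Col1a1, Col1a2 and Col3a1 were higher in ISO than in DMSO and the same 4 were below ISO in Lip+ISO, and Col1a2 had a called interaction (-1.03). The mean of the sums was highest in ISO for fibroblast, macrophage, endothelial and mesothelial markers, as it was for Slc2a1. Their part in that result was not tested.

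Endothelial markers summed to 119.8 to 227.1 CPM in DMSO, 279.2 to 507.0 in ISO, 59.6 to 198.4 in Lip and 93.2 to 274.1 in Lip+ISO, and 1 of 9, Cldn5, was higher in ISO than in DMSO and lower in Lip+ISO than in ISO. Of 7 mural cell markers Pdgfrb alone was called in ISO against DMSO, as higher. Acta2 (-0.63) and Tagln (-0.02) had negative log2 fold changes there and the others positive ones. Acta2 was also lower in Lip+ISO than in Lip (-1.31, adjusted p = 0.0039). The mural sums were 275.9 to 436.8 CPM in DMSO and 324.2 to 473.4 CPM in ISO, which overlapped, and 245.0 to 473.4 CPM over all libraries. Of 6 mesothelial markers Wt1 was higher in ISO than in DMSO. It was also higher in Lip+ISO than in Lip (log2 fold change 1.49, adjusted p = 0.0026), with -0.02 in Lip+ISO against ISO. The mesothelial sums were 24.8 to 56.6 CPM in DMSO, 65.4 to 75.6 in ISO, 14.4 to 59.8 in Lip and 41.9 to 51.8 in Lip+ISO. Lymphocyte, epididymis and erythrocyte lists had 1 tested gene each, none of them called, and summed to at most 1.15 CPM in any library, with 3 of 4 erythrocyte genes at 0 in all 12. The part of these cells in the changes of Slc2a1, Slc16a1 and Slc16a3 was not tested. In bulk RNA a change in the number of cells of a type and a change in the RNA per cell cannot be told apart.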

How the data were processed

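RNA-seq libraries (TruSeq, total RNA) were analysed from the deposited table of raw counts per RefSeq gene, 1 column per library. According to the study's methods, the authors aligned reads to mm9 with STAR (2.4.2a in the submitters' processing notes), kept 1 read per position with HOMER and counted reads per gene with iRNA-seq; all values used here are these deposited counts, with the table's gene lengths and coordinates. Removing reads at the same position lowers the counts of the most abundant genes most. The notes also list hg19, and strand in counting is not given in the sources used here.

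Groups were taken from the sample titles, and the table's ISO+Lip columns were matched to the Lip+ISO titles by number. Genes passing filterByExpr (13543 of 20295) were fitted in edgeR 4.0.16 (R 4.3.3) with TMM factors (0.924 to 1.07), 1 mean per group over 12 libraries, and two-sided quasi-likelihood F-tests, adjusted by Benjamini-Hochberg over all tested genes, in 5 comparisons. DESeq2 1.42.0 was an alternative, and the steps were tested on simulated data. Named were members called in any comparison with a group mean of at least 1 CPM, 9 well-known carriers whatever their test, and from each pathway list the called genes with the largest change, with Hk2, Ldha, Txnip, Arrdc4, Bsg, Cd36, Acsl1, Tbc1d4 and Mpc1. The rule for the members used symbols and no measured value, but members, lists and tests were chosen with earlier results of these data known. The counts include 1 member that is not reported here by name. No pair of libraries of a group agreed within sampling noise.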

Additional observations from a re-analysis of the deposited data

Results flagged for a closer look

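The response to isoproterenol with the inhibitors differed from that without them, by the interaction term of the fit, for Slc2a1 (-1.08 on the log2 scale, adjusted p = 0.011) and Slc16a10 (-1.19, adjusted p = 0.0055). For Slc2a1 the responses were 1.04 without and -0.04 with the inhibitors. For Slc16a10 they were -0.16 and -1.36, and its 3 Lip+ISO libraries were the lowest 3 of the 12.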

How the results depend on the processing

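The 20 member calls kept their direction in all alternatives run. Of 138 values from other settings, 127 stayed called and 11 did not, and of 300 values from the 15 fits that left libraries out, 263 stayed called and 37 did not. DESeq2 gave the same counts of called members in every comparison. With a log2 fold change of at least 1 required, the counts of lower members were 0 in ISO against DMSO, 2 in Lip+ISO against ISO and 1 in Lip+ISO against Lip, and those of higher members were 5 in ISO against DMSO and 2 in Lip+ISO against Lip, Slc16a1 (1.00 and 0.77) being the gene lost in both. Scaled by library totals alone, 2 members were lower in ISO against DMSO, adding Slc2a8, and the median of all genes moved by -0.111 in Lip+ISO against Lip. That scaling and no other ended the Slc16a3 call in Lip+ISO against ISO (adjusted p = 0.062), and fitting only the 2 groups compared ended those of Slc16a1 in Lip+ISO against ISO (0.07) and Slc16a6 in Lip+ISO against Lip (0.087). The cause was not tested. Leaving libraries out, higher members in ISO against DMSO numbered 3 (without replicate 3: Slc16a1, Slc2a1 and Slc5a7) to 6 and lower ones 1 to 2. Lower members numbered 2 to 5 in Lip+ISO against ISO, 2 to 4 in Lip+ISO against Lip and 0 to 2 in the interaction, where the 0 was without replicate 2 of every group. Higher members in Lip+ISO against Lip numbered 3 to 4. Of 60 values not called for named genes, 8 were called in some alternative and 25 changed sign in some.

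The labels do not say that replicate numbers mark shared preparations. Libraries of the same number deviated together in 17 of 18 pairs at a correlation over 0.1 (0.0373 to 0.369), and 12 of 12 were closest to their own number, a hint from the data and not from the design. With the replicate block, 7 members were lower in Lip+ISO against ISO (adding Slc16a6, Slc16a9 and Slc5a7) and 1 higher (Slc5a3), 2 were lower in ISO against DMSO (adding Slc2a10), 7 were higher there (adding Slc16a9), 4 were higher in Lip+ISO against Lip (adding Slc16a3, 0.45, adjusted p = 0.04955), 5 lower there (adding Slc5a6) and 3 lower in the interaction (adding Slc16a3, -0.95, adjusted p = 0.032). The share of all tested genes called with the block was not counted, so these member counts have no background beside them. Depth limits Slc16a11 and Slc16a13, with under 100 counts in each library, and the 13 members that were not tested.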
